A study of Mus musculus with 65 samples.

Results

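Mitochondrial respiratory chain genes were followed in mouse mammary glands and in p53-null mammary tumours, on Affymetrix arrays that measured RNA. The set held 41 named nuclear genes, and 40 of them had a probe set assigned to them alone, out of 18194 genes measured in this way. Cox7b was the member without one and has no values here. Of the 40 genes, 23 are counted with complex I, 4 with complex II, 5 with complex III and 7 with complex IV, and 1 encodes cytochrome c. Complexes were assigned by gene name, so Ndufa4, also found with complex IV, is counted with complex I. Where a gene had several probe sets, the one with the highest mean in a tissue was used, and the 40 members all passed the filter on low values in both tissues.

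The respiratory chain passes electrons from NADH (complex I) and from succinate (complex II, which is also succinate dehydrogenase) through ubiquinone to complex III, then through cytochrome c to complex IV, where oxygen is reduced. The chain pumps protons across the inner mitochondrial membrane, and ATP synthase uses the gradient. Most subunits are encoded in the nucleus and are made in nearly every cell type, while a few complex IV subunits have tissue forms. Cox6a2 is the form of subunit 6a found in heart and skeletal muscle, and Cox6a1 is its widely expressed partner. Brown fat and muscle are rich in mitochondria, and both can lie beside an inguinal mammary gland.

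The glands came from Balb/c mice, labelled 10 weeks old, with either both copies of Tgfb1 (wild type) or 1 copy (heterozygotes). The gene encodes the cytokine TGF-beta1. All animals received estrogen and progesterone before exposure. They were then sham-irradiated and sampled 1 week later, or given 10 cGy of ionizing radiation and sampled after 1 or 4 weeks. There were 3 arrays in each of the 6 gland groups except heterozygotes 1 week after 10 cGy, which had 2. RNA came from whole tissue of the posterior part of the inguinal gland with the lymph node removed, so epithelium, fat and stroma were measured together. The labels do not state whether the repeats are separate animals, so p-values measure the spread between these samples, which may be technical. Sham glands were taken only at 1 week, which leaves the 4-week glands without a sham group of their own time. The labels give 10 weeks for every gland and do not say at which point that age was taken. The tumours grew from unirradiated p53-null mammary fragments of BALB/c donors that were placed in cleared inguinal fat pads of BALB/c female hosts. The hosts were wild type or Tgfb1 heterozygotes and were irradiated or sham-irradiated 3 days before transplantation, with a dose not given in the sources used here. There were 9 tumours from sham-irradiated and 23 from irradiated wild-type hosts, and 6 from sham-irradiated and 10 from irradiated heterozygous hosts. The Tgfb1 genotype is that of the host, and a tumour can also hold host cells. The treatment labels of 1 tumour contradict each other, and its title decided that it is counted with irradiated wild-type hosts.

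The 65 arrays had similar medians within a tissue, between 4.86 and 4.93 on the log2 scale in the 17 glands and between 5.84 and 5.96 in the 48 tumours. Arrays of 1 group correlated at 0.976 to 0.994 in glands and 0.899 to 0.991 in tumours over all genes. The tissues were handled apart, because their values were deposited on different scales. Some samples stood apart by marker genes of other tissues. The mean of 20 skeletal muscle genes ranged from 4.33 to 10.98 over the glands, and 4 arrays exceeded 8, namely sham wild-type repeats 2 and 3, repeat 3 of wild type at 1 week and repeat 3 of wild type at 4 weeks. A lymph node list exceeded 7 in 3 glands. In tumours 6 arrays exceeded 8 on the muscle list. White fat genes were measured in all glands (list mean 11.27 to 11.83), and so were luminal epithelial genes (10.03 to 10.82). In bulk tissue, fewer cells of a type and less RNA per cell cannot be told apart.

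Upstream sequence was found in the RefSeq table (GRCm38.p6) for 30 of the 40 measured members, as 32 windows of 250 bases before and 50 after the start. Letters of 4 regulators known from mitochondrial genes were searched on both strands. The NRF1 letters GCGCATGCG lay in 4 of 32 member windows (12.5%), against 1.75% of all 32851 windows in the table and 2.69% of windows of genes on the array. The members holding them were Cox6a1, Cycs, Ndufa8 and Uqcrc1. The YY1 letters AGATGGCGG were in 3 member windows (9.38%, against 1.07% of all and 1.61% of genes on the array), those of Ndufa9, Ndufs4 and Ndufs7. The ETS letters CCGGAAG, which the factor GABP reads, were in 7 (21.9%, against 8.86% of all and 13% of genes on the array), and the ERR letters TCAAGGTCA were in 1, that of Sdhd (3.12%, against 0.423% and 0.342%). A match is a description of letters and not a shown binding site. The 250 bases before the start are printed below for Cox6a1, the member that varied least over the tumours, for Cycs, which encodes cytochrome c, for Ndufa8, whose match ends just before the start, and for Ndufa4, which held none of the 4 motifs and whose tumour values are described further on. Capitals mark motif matches. In Cox6a1 they are the NRF1 letters on both strands, which overlap, and the ETS letters on the opposite strand. In Cycs and Ndufa8 they are the NRF1 letters on the opposite strand. All 4 genes lie on the minus strand, and the windows are chr5:115348959-115349208 (Cox6a1), chr6:50566570-50566819 (Cycs), chr2:36049339-36049588 (Ndufa8) and chr6:11907451-11907700 (Ndufa4).
Cox6a1: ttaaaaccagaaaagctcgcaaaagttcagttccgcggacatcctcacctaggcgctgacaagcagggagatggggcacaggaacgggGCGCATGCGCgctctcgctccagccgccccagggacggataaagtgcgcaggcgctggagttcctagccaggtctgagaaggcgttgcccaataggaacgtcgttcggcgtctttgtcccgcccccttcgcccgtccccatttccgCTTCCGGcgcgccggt
Cycs: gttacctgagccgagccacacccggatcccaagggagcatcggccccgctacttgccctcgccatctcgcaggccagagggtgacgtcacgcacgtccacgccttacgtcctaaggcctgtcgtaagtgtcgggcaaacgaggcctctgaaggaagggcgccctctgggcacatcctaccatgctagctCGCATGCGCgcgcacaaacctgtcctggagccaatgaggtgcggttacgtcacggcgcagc
Ndufa8: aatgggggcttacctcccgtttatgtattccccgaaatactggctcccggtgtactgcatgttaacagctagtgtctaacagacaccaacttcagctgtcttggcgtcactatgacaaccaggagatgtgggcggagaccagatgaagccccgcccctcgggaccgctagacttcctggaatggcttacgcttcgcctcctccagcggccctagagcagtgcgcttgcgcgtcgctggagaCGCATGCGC
Ndufa4: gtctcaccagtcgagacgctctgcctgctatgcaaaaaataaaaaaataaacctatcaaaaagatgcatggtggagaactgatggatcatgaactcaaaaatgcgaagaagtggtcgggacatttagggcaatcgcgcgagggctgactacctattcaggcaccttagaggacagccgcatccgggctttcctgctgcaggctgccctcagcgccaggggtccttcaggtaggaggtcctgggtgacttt

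In glands the members varied little. Over the 17 arrays the SD of a member's log2 level was 0.086 at the lowest (Cox4i1) and 0.145 at the median, against a median of 0.206 over all genes tested. The SD of 3 members exceeded that all-gene median, and Cox6a2 stood far above the others at 1.19, with Uqcrq next at 0.23. The mean over the members lay between 10.58 and 10.90 in single arrays. By group it was 10.77 ± 0.12 (SD, n = 3) in sham wild type, 10.73 ± 0.07 at 1 week and 10.69 ± 0.06 at 4 weeks. In heterozygotes it was 10.77 ± 0.16 (n = 3) in sham, 10.70 ± 0.17 (n = 2) at 1 week and 10.76 ± 0.12 (n = 3) at 4 weeks. The group means thus differed by less than the SD between arrays of the sham groups.

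The genes chosen to stand for each complex differed little between gland groups. Ndufs1, an iron-sulfur core subunit of complex I, had group means from 9.17 ± 0.23 (SD, n = 2, heterozygotes at 1 week) to 9.37 ± 0.17 (n = 3, sham wild type), and its single arrays ran from 8.96 to 9.56. Sdhb, the iron-sulfur subunit of complex II, ran from 10.25 to 10.92, and both of these extremes were close to values within the sham wild-type group (10.25, 10.56 and 10.88). Uqcrc1, a core subunit of complex III, ran from 9.72 to 10.22. Its sham wild-type arrays were at 10.21, 9.90 and 9.76, so that this 1 group covered nearly the whole range. Cycs, cytochrome c itself, ran from 11.49 to 12.08, with both the lowest and the highest array in irradiated glands at 4 weeks, of wild type and heterozygote respectively. Cox4i1, the common form of complex IV subunit 4, ran only from 12.29 to 12.58.

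The members with the largest SD after Cox6a2 were Uqcrq (0.23), Sdhb (0.21), Ndufb2 (0.21), Ndufb10 (0.20) and Sdhc (0.19). Uqcrq, an accessory subunit of complex III, was at 10.95, 10.32 and 10.25 in the sham wild-type arrays and at 10.94, 10.26 and 10.77 in the sham heterozygous ones. Ndufb2, an accessory subunit in the membrane arm of complex I, was at 10.47, 10.20 and 9.73 in sham wild type and at 10.35, 10.00 and 10.34 in sham heterozygotes. Both genes therefore spread about as widely among unirradiated wild-type arrays as over all 17. Ndufb10, another membrane-arm subunit, ran from 9.36 (wild type, 4 weeks) to 10.17 (heterozygote, 4 weeks).

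**Figure D1:**
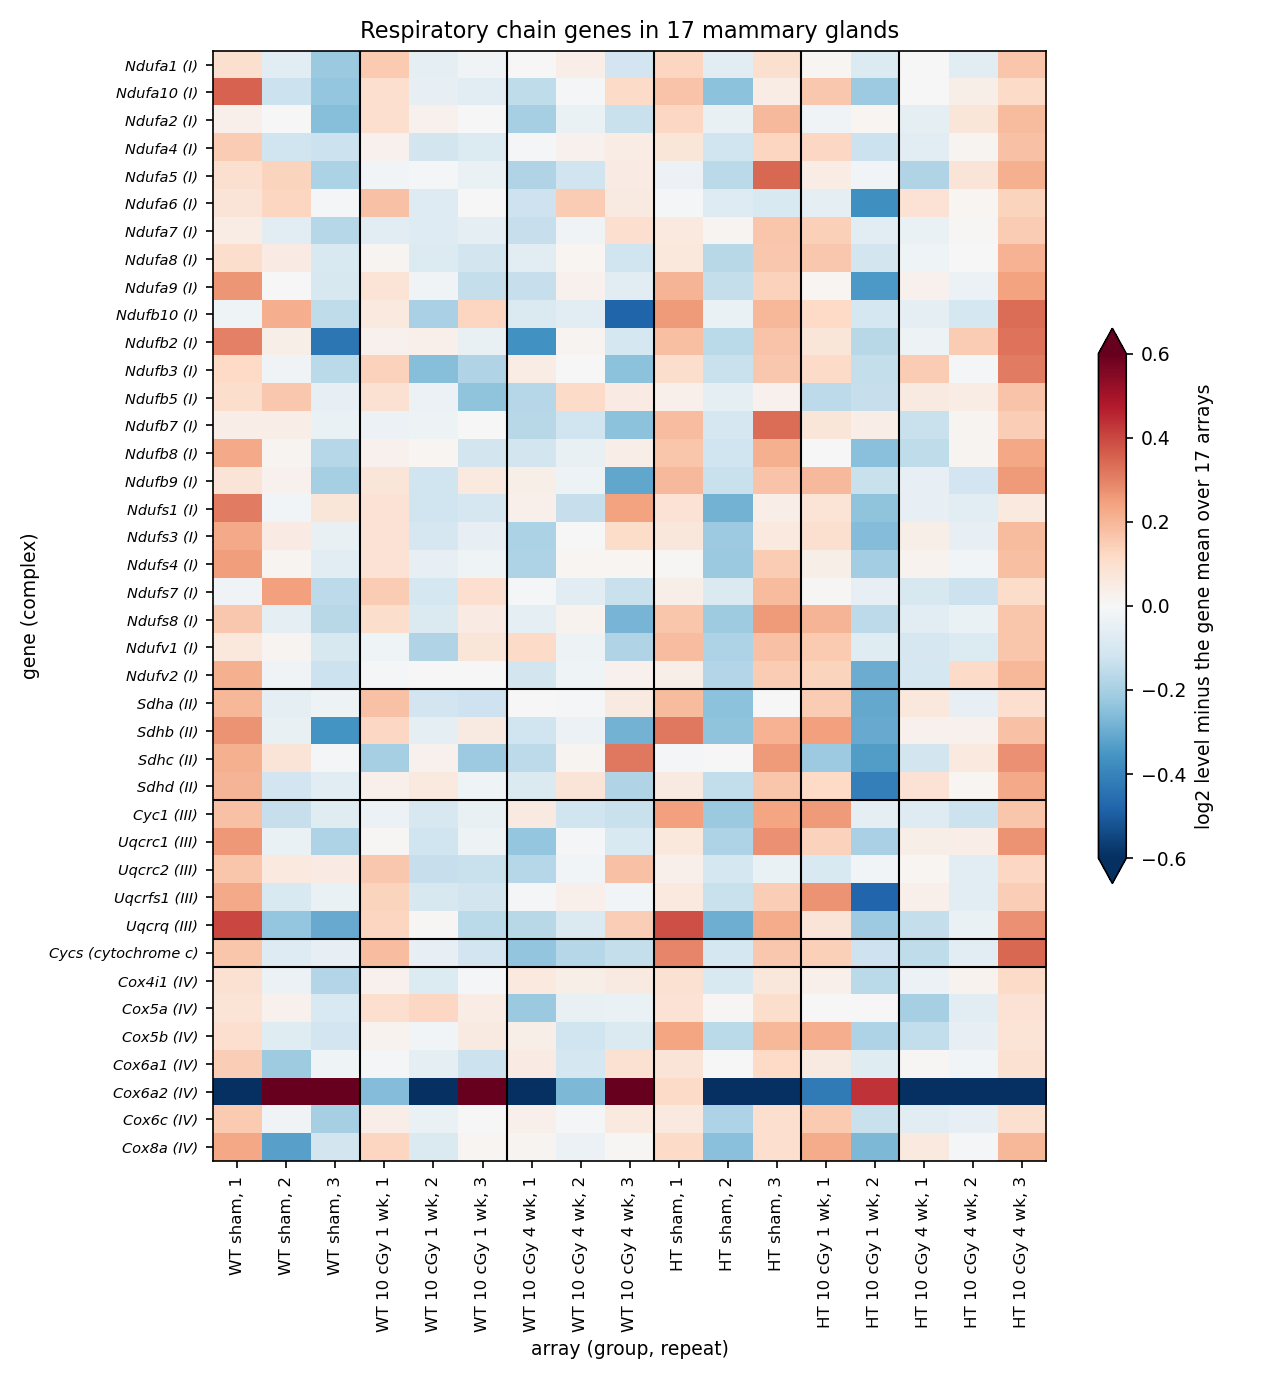
Log2 level minus the gene's mean over 17 glands for 40 respiratory chain genes, with genes ordered by complex and arrays by group (WT, wild type; HT, heterozygote); colour saturates at 0.6 on either side. Most genes of a single array share a shade, as in sham wild-type repeat 1 (high) and sham heterozygote repeat 2 (low), and the row of Cox6a2 departs from the others in the arrays rich in muscle genes.

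The members moved up and down together from gland to gland within groups. After subtraction of group means, the 780 pairs of members had a median correlation of 0.656 over 17 arrays, and 96.0% of pairs were positive. Over all pairs of tested genes the median was 0.016, with 51.6% positive. The correlation of a member with the mean of the other members was highest for Ndufa4 at 0.956 and had a median of 0.814. Apart from Cox6a2 it was lowest for Uqcrc2, a core subunit of complex III, at 0.471. Cox6a2 stood apart, at -0.19 with that mean, and was positive with 11 of the 39 other members. These are descriptions over 17 arrays that share group means and normalization.

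For 8 of the 40 members the gene most alike in glands, among all tested genes, was another member of the set. Ndufs4, an accessory subunit at the electron-entry arm of complex I, was most like Uqcrc1 (r = 0.976), Cox6c like Cox4i1 (0.973) and Ndufb9 like Ndufv1 (0.945). A second probe set of Cox6c, with a mean of 10.8 in glands, correlated at only 0.06 with the one used. Ndufa4 was most like Ndufab1, the mitochondrial acyl carrier protein that is also a complex I subunit (0.967). Cox6a2 was most like Des, which encodes the muscle intermediate filament desmin (0.990). The mean of the 39 members other than Cox6a2 correlated at 0.951 with the mean of 16 ATP synthase genes, at 0.942 with 22 further chain subunits, at 0.915 with 12 genes of the citric acid cycle and at 0.861 with 27 mitochondrial ribosomal proteins. With 14 glycolysis genes it correlated at 0.569 and with 15 genes of mitochondrial biogenesis at 0.224.

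No irradiation or genotype comparison in the gland called a member. In limma, at an adjusted p under 0.05, the count was 0 of 40 members in each of the 9 comparisons. For wild type at 1 week, wild type at 4 weeks and heterozygotes at 1 week against their sham groups, 0% of all 12945 tested genes passed as well, and for heterozygotes at 4 weeks 0.0154% did. The other comparisons called 0% (sham heterozygote against sham wild type), 0.0463% (heterozygote against wild type over all conditions), 0.0695% (4 weeks against 1 week) and 0% for both interactions of genotype and irradiation. Members at an unadjusted p under 0.05 numbered 1 in heterozygotes at 1 week, 1 in heterozygote against wild type and 1 in 4 weeks against 1 week, with 0 in the other 6 comparisons. All genes reached that level at 3.96%, 12% and 15.7% in those comparisons. In the other 6 all genes reached it at 4.54% and 2.29% (wild type at 1 and 4 weeks), 5.29% (heterozygotes at 4 weeks), 3.55% (sham genotypes), 3.05% and 1.78% (interactions). Over all 9 comparisons the differences of the 39 members other than Cox6a2 lay between -0.36 and 0.27 on the log2 scale.

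In wild-type glands 1 week after 10 cGy the median difference of the members from sham was -0.03 (15 of 40 higher), and over all genes it was -0.02. Leaving out 1 array moved it between -0.09 and 0.05. At 4 weeks it was -0.07 (8 of 40 higher) against 0.01 over all genes, and between -0.13 and 0.02 with 1 array left out. Of the 23 complex I genes 20 were lower at 4 weeks, with a median of -0.08. Of the 7 complex IV genes 4 were higher and 3 lower, with a median of 0.04. Over all genes 54.7% were higher. The difference between complexes was not tested, and members moved together from gland to gland. Ndufb7, an accessory subunit of complex I, had the smallest p among members at 4 weeks. Its sham arrays were at 10.95, 10.95 and 10.87 and its 4-week arrays at 10.74, 10.79 and 10.66. All 3 irradiated arrays lay below the sham arrays, and the difference was -0.19 (SE 0.10, unadjusted p = 0.0808, limma adjusted p = 1.0). The share of all genes whose arrays separate in this way is not given here. Next by p came Ndufb10 with a difference of -0.23, whose arrays overlapped those of sham, and Cycs with -0.20, which was at 11.49, 11.56 and 11.59 against 11.90, 11.65 and 11.68 in sham. Neither passed the test. At 1 week the smallest p were those of Sdhc, Ndufb5 and Uqcrc2, with differences of -0.22, -0.13 and -0.13. A standard error of about 0.13 at the median member bounds what these groups of 3 could resolve.

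In heterozygous glands the median difference of the members was -0.07 at 1 week (4 of 40 higher), beside -0.06 over all genes, and 0.00 at 4 weeks (20 of 40 higher). The 1-week value rests on 2 arrays, and without either of them the median was -0.20 or 0.06. Sdhc, which anchors complex II in the membrane and helps bind ubiquinone and heme, had the smallest p at 1 week. Sdhc was at 8.97, 8.98 and 9.23 in sham heterozygotes, at 8.76 and 8.64 at 1 week and at 8.86, 9.04 and 9.25 at 4 weeks. In wild type it was at 9.19, 9.05 and 8.97 in sham, at 8.78, 9.00 and 8.76 at 1 week and at 8.82, 8.99 and 9.29 at 4 weeks. Both heterozygous 1-week arrays were thus below all sham arrays, whereas in wild type 1 of the 3 arrays at 1 week reached the sham range. The share of all genes that separate in this way is not given here, and Sdhc was picked by its p. The differences from sham were -0.36 (SE 0.15, limma adjusted p = 0.995) in heterozygotes and -0.22 in wild type at 1 week. From 1 to 4 weeks, averaged over genotypes, Sdhc was 0.27 higher (SE 0.10, unadjusted p = 0.0185, limma adjusted p = 0.243), which did not pass the test. A second probe set of Sdhc correlated at 0.43 over the glands with the one used. Ndufa9 (-0.23) and Ndufb8 (-0.21) followed Sdhc at 1 week in heterozygotes. At 4 weeks the smallest p were those of Cox5a (-0.13), Ndufa6 (0.14) and Ndufb7 (-0.13).

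Between genotypes, the members' median difference of heterozygote from wild type was 0.04 over all conditions (28 of 40 higher), beside -0.02 over all genes, and 0.06 in sham glands (27 of 40 higher; -0.03 to 0.13 with 1 array left out). Ndufb7 had the smallest p, 0.13 higher in heterozygotes (SE 0.06, unadjusted p = 0.0494, limma adjusted p = 0.414). The 8 heterozygous arrays of Ndufb7 ran from 10.78 to 11.24 and the 9 wild-type arrays from 10.66 to 10.95, so the genotypes overlapped. Ndufa7 and Ndufa2 were each 0.10 higher. In sham glands the smallest p belonged to Cox6a2, at -1.57 (SE 0.86, unadjusted p = 0.0906, limma adjusted p = 0.965), and next came Ndufa2 (0.17) and Ndufa7 (0.14). Without the 4 arrays rich in muscle genes, 2 of which are sham wild type, the Cox6a2 difference was 0.44, of the opposite sign. From 1 to 4 weeks after irradiation the members' median was 0.03 higher, beside 0.06 over all genes, and after Sdhc the smallest p were those of Cox5a (-0.13) and Ndufb5 (0.15). The genotype difference in the response had a member median of -0.06 at 1 week, where Ndufa2 (-0.21), Ndufa1 (-0.18) and Cox5a (-0.15) had the smallest p, and of 0.07 at 4 weeks, where Ndufa6 (0.18), Ndufs4 (0.21) and Ndufb5 (0.17) did. Leaving out the muscle-rich arrays gave member medians of -0.16 and -0.21 for wild type at 1 and 4 weeks and -0.12 between sham genotypes, from a single remaining sham wild-type array.

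**Figure D2:**
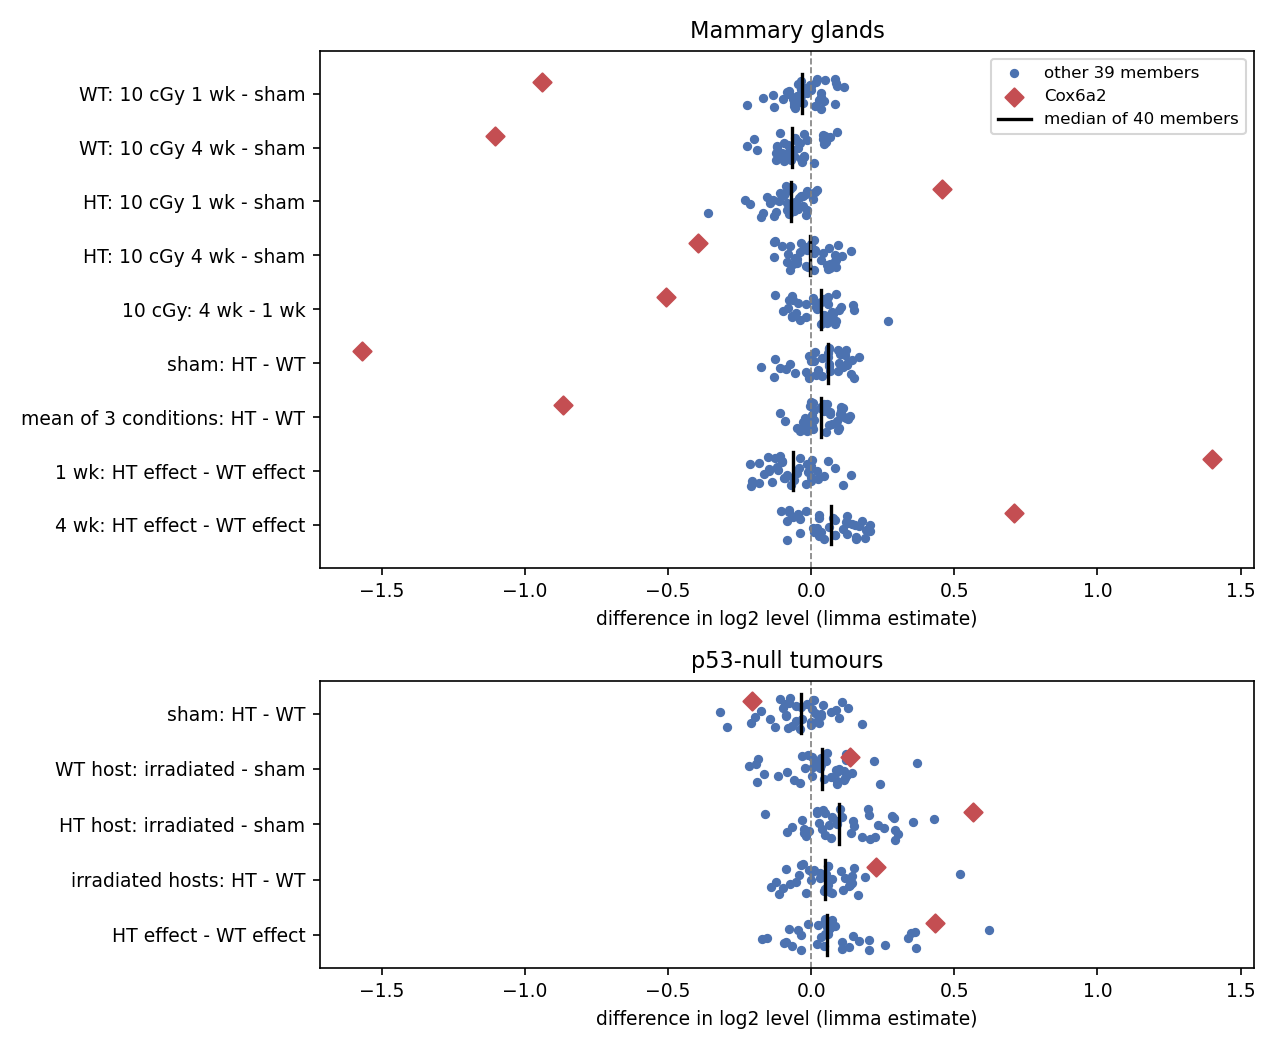
Estimated log2 differences of 40 respiratory chain genes in each gland comparison and each tumour comparison, with points for genes, a red diamond for Cox6a2 and a black bar for the median (WT, wild type; HT, heterozygote). Medians lie between -0.07 and 0.10, and Cox6a2 reaches -1.57 in sham glands, where 2 of 3 wild-type arrays were rich in muscle genes.

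Cox6a2 was the member that rose with skeletal muscle genes in the glands. Cox6a2 was at 5.48, 9.73 and 7.26 in sham wild-type glands, at 6.12, 5.66 and 7.86 at 1 week and at 5.27, 6.10 and 7.78 at 4 weeks. In heterozygotes it was at 6.49, 5.54 and 5.73 in sham, at 5.95 and 6.80 at 1 week and at 5.56, 5.43 and 5.58 at 4 weeks. The 4 arrays above 7 are exactly those rich in muscle genes. Acta1, skeletal muscle actin, was at 5.85, 13.45 and 11.55 in the same sham wild-type glands, and over all 17 it correlated with Cox6a2 at 0.891 within groups (0.912 without the 2 farthest arrays). With muscle and brown fat list means in 1 limma fit beside group, Cox6a2 rose by 0.53 per unit of the muscle mean (SE 0.04, adjusted p = 1.12e-05). Of all genes 0.394% passed this test, 51 in number and all upward, and Cox6a2 was the 1 member among them. Leaving out any single array gave slopes from 0.45 to 0.56, each past the test, whereas without the 4 muscle-rich arrays the slope was 0.33 and did not pass (limma adjusted p = 0.198). The other 39 members had muscle slopes between -0.04 and 0.01, 29 of 40 being negative.

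Muscle alone took up 92.9% of the within-group sum of squares of Cox6a2 and at most 33.3% of that of any other member, with 29 members under 10%. Cox6a1, the widely expressed partner, ran only from 13.02 to 13.38 over the same glands. Its lowest array was sham wild-type repeat 2, the one with the highest Cox6a2. The isoforms correlated at -0.595, but at -0.115 without the 2 farthest arrays. Among tissue forms outside the set, Cox7a1, the muscle and brown fat form of subunit 7a, ran from 4.95 to 8.12 with its highest value in the same array, and had a muscle slope of 0.21 (limma adjusted p = 0.780). Cox8b, another form found in muscle and brown fat, ran from 8.54 to 10.58. Its highest array was sham wild-type repeat 1, where the muscle mean was 4.55. The lowest was heterozygous repeat 2 at 1 week, where the muscle mean was 7.23. The common form Cox7a2 ran from 12.24 to 12.59.

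**Figure D3:**
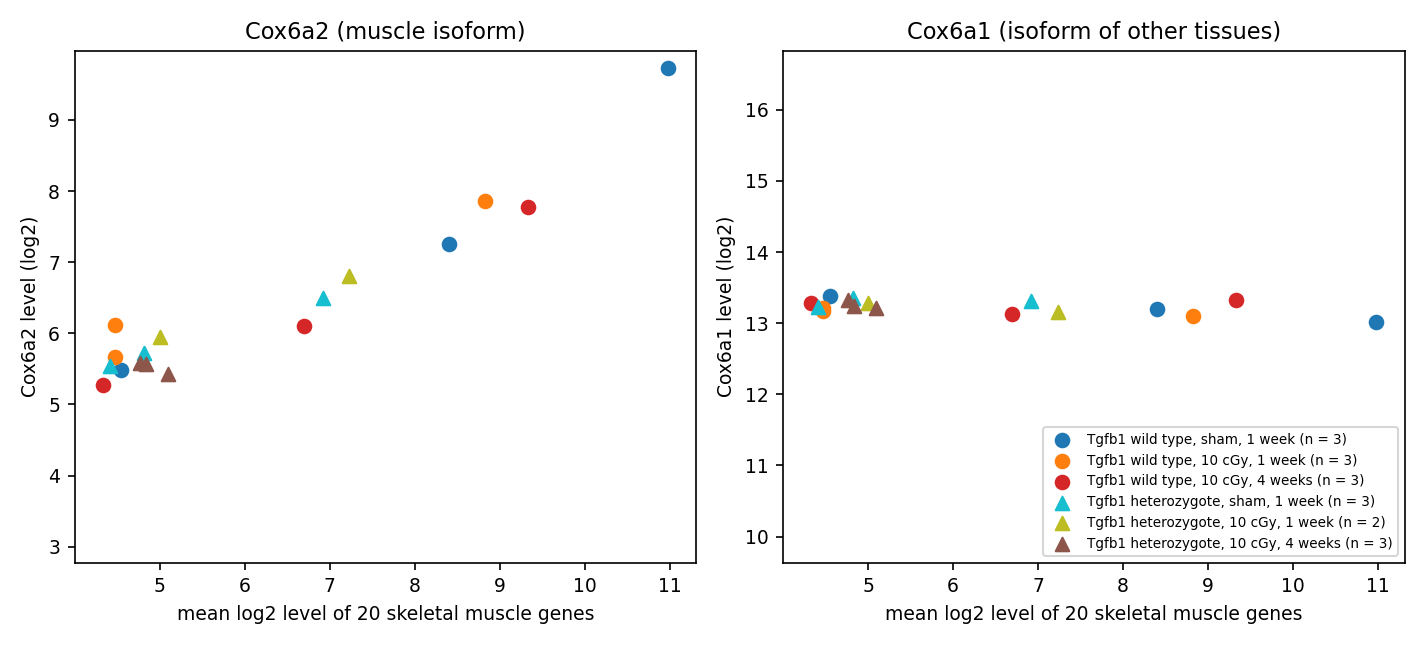
Log2 level of Cox6a2 (left) and Cox6a1 (right) in 17 glands against the mean log2 level of 20 skeletal muscle genes, with vertical axes of equal span and colours for groups. Cox6a2 goes from 5.27 to 9.73 as the muscle mean goes from 4.33 to 10.98, while Cox6a1 stays between 13.02 and 13.38.

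The genes of the brown fat list were low in these glands, while Cox8b, outside that list, ran from 8.54 to 10.58. Ucp1, the uncoupling protein that defines brown fat, lay between 3.22 and 4.13, under the filter level of 4.15, and 4 more of the 10 listed genes had means under it. The mean of the 5 remaining genes ran from 4.95 to 5.86. In the joint fit 0% of all genes and 0 of 40 members passed on brown fat in limma. At an unadjusted p under 0.05 there were 3 members, against 5.58% of genes. These were Uqcrc2 with a slope of 0.39 (unadjusted p = 0.00539, limma adjusted p = 0.828), Uqcrq with 0.64 and Cox6a1 with 0.23. The slope was positive in 38 of 40 members, where it was positive in 53% of all genes, and the median slope was 0.19 against 0.02.

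Muscle and brown fat together took up a median of 24.8% of the members' within-group sum of squares, from 1.02% to 93.0%. Over all genes the median was 14.3%, and 2 covariates take up 18.2% by their degrees of freedom alone, a value that 16 members did not reach. Above 50% stood 3 members, namely Cox6a2 (93.0%), Uqcrc2 (69.9%) and Cox6a1 (65.0%), against 4.28% of genes. Sham wild-type repeat 1 carried much of the members' share, since without it the median was 13.8%. Without the 3 arrays rich in lymph node genes, of which it is 1, the median was 11.1%, beside 16.6% over all genes. Without either heterozygous array at 1 week it was 31.3%. With white fat as a further covariate it was 45.6%, beside 29.0% over all genes. Taken singly, muscle gave a member median of 5.21% (4.53% over all genes) and brown fat 13.3% (5.61%).

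Other cell type lists, fitted singly after these values were seen, took up similar or larger parts. White fat gave a member median of 28.9% against 7.85% over all genes, with positive slopes in 36 of 40 members, a median slope of 0.38 and 17 members at an unadjusted p under 0.05 (12.5% of genes). Basal epithelial genes gave 26.3% against 7.96%, with negative slopes in 37 members and 14 at that level (11.5% of genes). The lymph node list gave 16.8% against 5.28%, with 38 positive slopes and 7 members at that level (8.54% of genes). In limma 0 members passed the adjusted test on any of these 3 lists, where 0.61%, 0% and 1.38% of genes did. Luminal genes (5.9%), proliferation genes (7.28%) and macrophage genes (1.01%) gave lower medians. The part of each tissue in the members' shared movement was not tested beyond these fits.

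In tumours most members again varied less than other genes. The SD over 48 tumours was 0.122 at the lowest (Cox6a1) and 0.276 at the median, against 0.399 over all genes, and the mean over the members was 11.50 in sham-irradiated and 11.53 in irradiated wild-type hosts, 11.45 in sham-irradiated and 11.58 in irradiated heterozygotes. The SD of 4 members exceeded the all-gene median, namely Ndufa5 (0.96), Cox6a2 (0.82), Ndufa4 (0.70) and Ndufb2 (0.54). Next came Ndufb9 (0.39) and Cycs (0.38). In glands the SD of Ndufa4 was at percentile 5.15 of tested genes and that of Ndufa5 at 20.5, while in tumours they stood at percentiles 78.8 and 89.3.

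Ndufa5, an accessory subunit of the peripheral arm of complex I, ran from 9.83 through a median of 11.19 to 12.62 in tumours of sham-irradiated wild-type hosts and from 10.03 through 10.83 to 13.98 in irradiated ones. In heterozygous hosts it ran from 10.82 through 11.01 to 12.08 (sham) and from 10.58 through 11.04 to 13.80 (irradiated). All groups overlapped, and a few tumours were far above their group's median. Ndufa4, a small subunit first assigned to complex I and also found with complex IV, had group means of 12.59 ± 0.86 (SD, n = 9), 12.96 ± 0.71 (n = 23), 12.72 ± 0.38 (n = 6) and 13.01 ± 0.66 (n = 10) in the same order. Ndufb2 had group means of 11.31 ± 0.59, 11.34 ± 0.59, 11.32 ± 0.42 and 11.41 ± 0.50, and ran from 10.16 to 12.53. For both genes the ranges of the groups overlapped. Ndufb9, a membrane-arm subunit, ran from 10.93 to 13.32 and Cycs from 11.21 to 13.89, each with its lowest tumour in an irradiated wild-type host.

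The anchors of the complexes were steadier. Ndufs1 had group means of 10.18 ± 0.44, 10.33 ± 0.22, 10.28 ± 0.25 and 10.25 ± 0.15 in that order, and Sdhb of 11.03 ± 0.29, 11.15 ± 0.39, 11.21 ± 0.27 and 11.26 ± 0.21. Uqcrc1 was at 11.55 ± 0.33, 11.36 ± 0.26, 11.25 ± 0.23 and 11.43 ± 0.25. Cox4i1 was between 13.13 and 13.26 in its 4 group means and Cox6a1 between 13.73 and 13.79. For each of these 5 genes the ranges of the 4 groups overlapped.

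**Figure D4:**
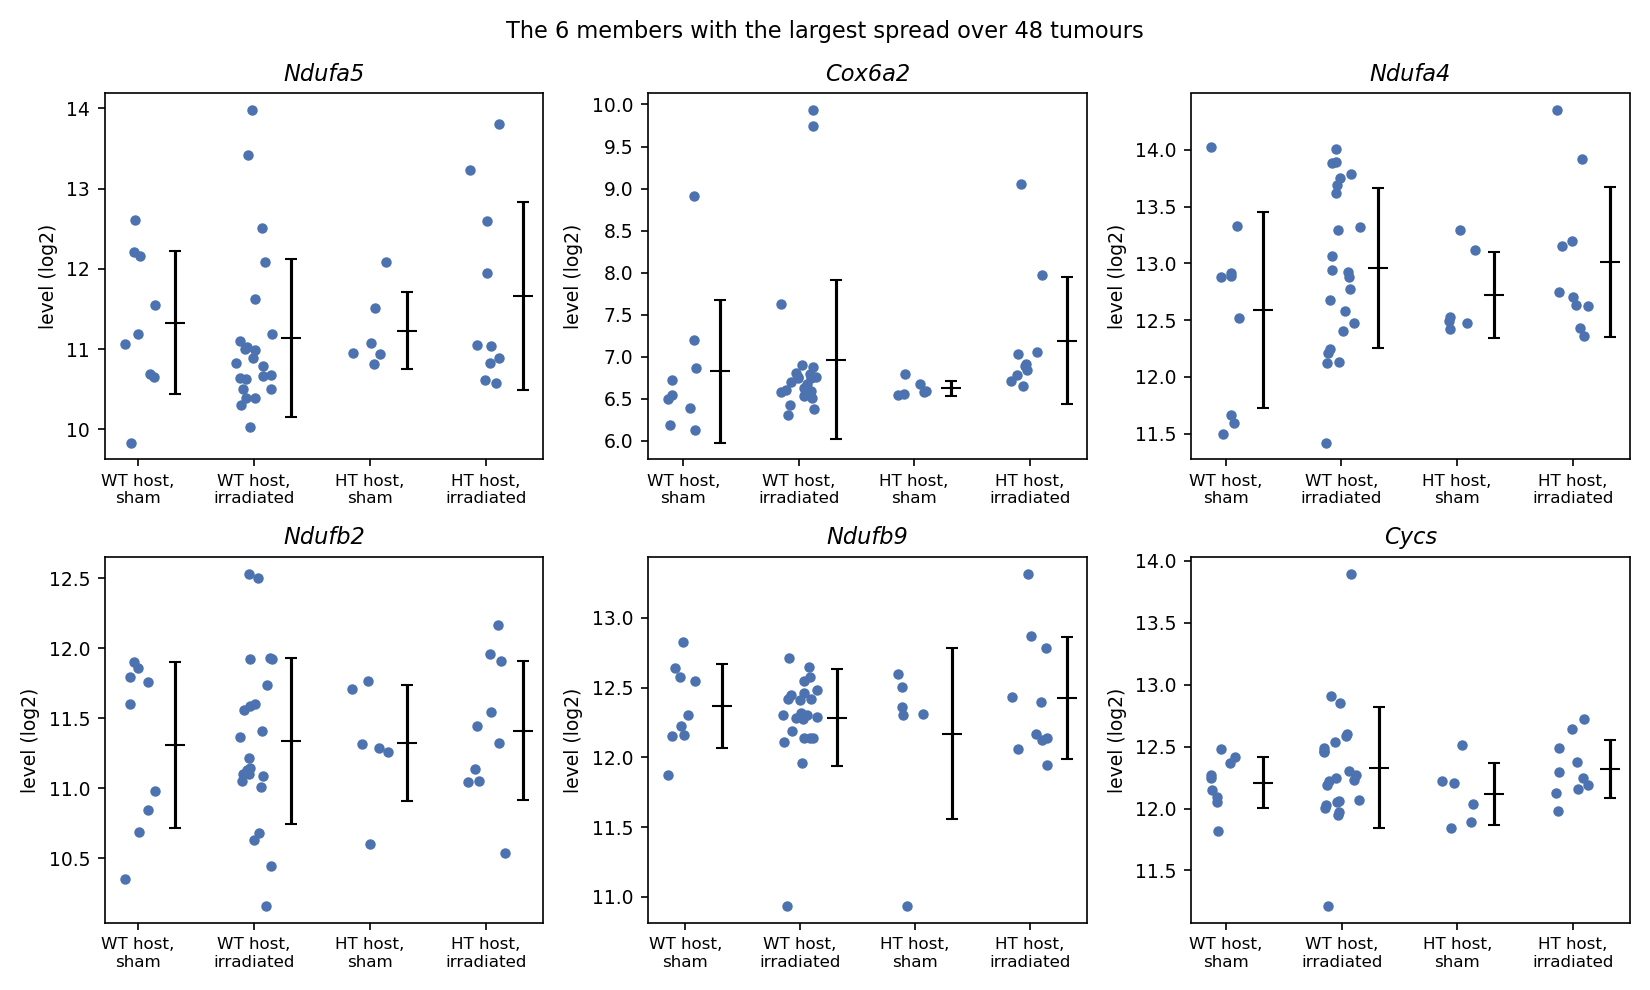
Log2 levels of Ndufa5, Cox6a2, Ndufa4, Ndufb2, Ndufb9 and Cycs in 48 tumours by host genotype and treatment (WT, wild type; HT, heterozygote; points, tumours; bars, mean and SD). Groups overlap in every panel, and single tumours stand out, as at 13.98 for Ndufa5 and 13.89 for Cycs.

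Host irradiation and host genotype called no member in the tumours either. In limma 0 of 40 members passed in each of the 5 comparisons, where 0% of the 12786 tested genes passed in 4 comparisons and 0.00782% in irradiated heterozygous against irradiated wild-type hosts. At an unadjusted p under 0.05 there were 3 members (6.94% of all genes) for irradiation in wild-type hosts and 4 (3.95%) in heterozygous hosts. Counts for genotype were 2 (5.29%) in sham-irradiated and 1 (5.6%) in irradiated hosts, and for the interaction 2 (4.83%). Median differences were 0.04 for irradiation in wild-type hosts (28 of 40 higher), 0.10 in heterozygous hosts (32 of 40 higher), -0.04 and 0.05 for genotype in sham-irradiated and irradiated hosts, and 0.06 for the interaction. Over all genes, 50.4% were higher with irradiation in wild-type and 50.7% in heterozygous hosts, with medians of 0.0015 and 0.0039. The 7 complex IV genes were all higher in tumours of irradiated than of sham-irradiated heterozygous hosts, with a median difference of 0.05. Cox6a2 was the highest of the 7, at 0.57, and no tumour of a sham-irradiated heterozygous host was rich in muscle genes. The 5 complex III genes were all lower in tumours of sham-irradiated heterozygous than wild-type hosts, with a median difference of -0.08. In that comparison 50.1% of all genes were higher.

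Ndufa1, a membrane-arm subunit of complex I encoded on the X chromosome, had the smallest p for irradiation in both host genotypes, which share no tumours. In wild-type hosts it ran from 12.02 through 12.26 to 12.70 in 9 sham tumours and from 12.28 through 12.50 to 12.75 in 23 irradiated ones. In heterozygous hosts it ran from 12.03 through 12.32 to 12.63 in 6 sham tumours and from 12.43 through 12.61 to 12.80 in 10 irradiated ones. The ranges overlapped, with the irradiated median above the sham median in both. The difference was 0.22 in wild-type hosts (SE 0.07, unadjusted p = 0.00201, limma adjusted p = 0.459) and 0.28 in heterozygous hosts (SE 0.09, unadjusted p = 0.00227, limma adjusted p = 1.0), and neither passed. In glands Ndufa1 had group means between 11.85 and 11.97.

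After Ndufa1, the smallest p for irradiation in wild-type hosts were those of Ndufa8 (-0.22) and Ndufs3 (-0.17), and in heterozygous hosts those of Sdha (0.30), the flavoprotein of complex II, and Ndufa9 (0.35). Between sham-irradiated genotypes the smallest p were those of Ndufa9 (-0.32), Uqcrc1 (-0.30) and Sdha (-0.21), in a comparison that shares its heterozygous sham tumours with the previous one. Ndufa9 was at 10.91 ± 0.25 (SD, n = 6) in those tumours and at 11.23 ± 0.34 (n = 9), 11.24 ± 0.29 (n = 23) and 11.27 ± 0.22 (n = 10) in the other groups. Sdha likewise was at 10.71 ± 0.25 there and between 10.92 and 11.01 in the other group means. So the same 6 tumours were the lowest group for both genes, by about 1 SD, without passing the test. Between irradiated hosts the smallest p were those of Ndufa8 (0.19), Ndufa1 (0.10) and Cox6c (0.15), and for the interaction those of Ndufa8 (0.36), Uqcrc1 (0.37) and Sdha (0.26).

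Among tumours of 1 group, several members followed the proliferation or the luminal list, fitted jointly within groups. On 11 proliferation genes 11 of 40 members passed in limma, all upward, while 12.5% of all genes passed, 8.77% upward. Slopes were positive in 36 of 40 members, with a median of 0.16. The steepest was that of Cyc1, cytochrome c1 of complex III, at 0.42 (SE 0.09, adjusted p = 0.00112). Ndufs3, a core subunit of complex I, had 0.27 (adjusted p = 0.00228) and Uqcrfs1, the Rieske iron-sulfur protein of complex III, 0.37 (adjusted p = 0.00349). The other 8 were Ndufs4 (0.36), Ndufb5 (0.37), Ndufb9 (0.38), Ndufa10 (0.32), Ndufa7 (0.22), Sdhb (0.32), Cycs (0.37) and Cox5b (0.18). With the mean of all probe sets of a gene, 7 members passed. With proliferation genes fitted alone, after these values were seen, 5 of 40 members passed, all upward. Of all 12786 genes 1333 passed that fit, 980 of them upward.

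On 10 luminal genes 12 of 40 members passed in limma, 10 upward and 2 downward, while 42.1% of all genes passed, 21.5% upward and 20.5% downward. Over both directions the members' share was under that of all genes, upward it was 10 of 40 beside 21.5%, and downward 2 of 40 beside 20.5%. Upward were Ndufa4 (0.29, adjusted p = 0.000117), Ndufb2 (0.15), Uqcrfs1 (0.14, adjusted p = 5.16e-05), Ndufb3 (0.10), Ndufa6 (0.09), Cox8a (0.08), Uqcrc2 (0.08), Ndufs4 (0.08), Sdhc (0.07) and Ndufa7 (0.07). Downward were Sdhb (-0.07, adjusted p = 0.0416) and Cox6a2 (-0.35, adjusted p = 4.78e-05). Without the 6 muscle-rich tumours the Cox6a2 slope on luminal genes was -0.02 (limma adjusted p = 0.628). Passing on both lists were 4 members, and 19 passed on either. Both lists together took up a median of 15.5% of the members' within-group sum of squares and 16.1% over all genes.

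Cox6a2 rose with skeletal muscle genes in tumours too. Its 6 muscle-rich tumours were at 8.91 (sham-irradiated wild-type host), 9.74, 7.63 and 9.93 (irradiated wild-type hosts) and 7.98 and 9.06 (irradiated heterozygous hosts), against a median of 6.72 over all 48. No tumour of a sham-irradiated heterozygous host was among them, and there Cox6a2 was at 6.62 ± 0.09 (SD, n = 6). In the joint fit with brown fat its muscle slope was 0.49 (SE 0.04, limma adjusted p = 5.51e-15), and 83.0% of its within-group sum of squares was taken up. Of all genes 2.35% passed on muscle, and Cox6a2 was the 1 member to pass. Without the 6 tumours the slope was 0.14 and did not pass (limma adjusted p = 1.0). On brown fat 0 members passed in limma (0.00782% of genes), with 2 at an unadjusted p under 0.05 (13.6% of genes). The member median for both lists was 5.77%, beside 6.02% over all genes.

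Fitted singly, after these values were seen, the members that passed on the endothelial and the fibroblast list all had negative slopes. On endothelial genes 18 members passed in limma, all downward, while 36.2% of genes passed and 18.8% downward. Tumour 5 of sham-irradiated wild-type hosts was at 12.03 on the endothelial list, while the others of its group ran from 6.54 to 8.11. Its mean over the members, 11.19, was the lowest of that group. This fit includes that tumour, and the endothelial slopes without it were not tested. On fibroblast genes 16 members passed, all downward, beside 38.7% of genes and 20.1% downward. On macrophage genes 13 of 40 members passed, near the 32.2% of all genes, with 12 downward beside 15.7% of genes.

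Pairs of members had lower correlations over the 48 tumours than over the 17 glands, a difference that was not tested. The 780 pairs had a median within-group correlation of 0.249 over 48 tumours, beside -0.0005 over all pairs of genes, and 85.1% were positive. A member's correlation with the mean of the others had a median of 0.486 and ran from 0.0995 to 0.812. The mean of the 39 members other than Cox6a2 correlated at 0.861 with the ATP synthase list, at 0.810 with mitochondrial ribosomal proteins, at 0.790 with 34 assembly factors, at 0.700 with the further chain subunits and at 0.585 with the citric acid cycle.

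In tumours many members resembled genes near them on their chromosome, as did many other genes. Each gene's within-group deviations were set against the mean of its 10 nearest tested genes, 5 on each side in RefSeq order (GRCm38.p6). The correlation exceeded 0.5 in 22 of 40 members in tumours, against 32.3% of all genes and 43.8% of the 1820 genes above percentile 90 by level. In glands it exceeded 0.5 in 7 members, against 16.7% of genes. The single most alike gene lay on the member's own chromosome for 34 of 40 members in tumours and for 0 of 40 in glands. All 10 most alike genes did so for 13 members in tumours. Both counts were made for members only, and the same shares over all genes were not worked out. The mean number of the 10 was 7.53 for members in tumours, 3.84 over all genes and 5.26 for the genes above percentile 90, and in glands it was 0.425 for members and 0.587 over all genes. The members lie on 17 chromosomes, and 5 of them lie on chromosome 6.

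Of the 6 members with the largest SD in tumours, 4 lie on chromosome 6, namely Ndufa5, Ndufa4, Ndufb2 and Cycs. Ndufa5 followed Wasl, the adjacent tested gene, at r = 0.934 over 48 tumours (0.904 without the 2 farthest), while in glands that correlation was -0.089. Wasl encodes N-WASP, an activator of actin assembly. The tumours highest in Ndufa5 were 1 from an irradiated wild-type host at 13.98 (Wasl at 13.57), 1 from an irradiated heterozygous host at 13.80 (Wasl at 13.06), another of wild type at 13.43 (13.09) and another of heterozygote at 13.23 (12.96), where the medians were 10.99 and 10.64. All 4 were high in both genes and came from irradiated hosts of either genotype, as did 33 of the 48 tumours. Pot1a, a telomere protein gene that lies 3 tested genes away, was at 11.74 and 11.50 in the second and the third of these tumours but at 7.50 in the fourth, beside a median of 8.25. Zfp800, 4 tested genes away, correlated at only 0.02. A second probe set of Ndufa5 correlated at 0.989 with the one used.

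Ndufa4 followed its neighbour Phf14 at r = 0.919 (0.918 without the 2 farthest; -0.588 in glands). Bmt2 and Tmem168, 4 and 3 tested genes away, correlated with it at 0.85 and 0.80. Ndufa4 was highest at 14.35 in a tumour of an irradiated heterozygous host (Phf14 at 12.64) and at 14.03 in a sham-irradiated wild-type one (Phf14 at 12.25). Ndufb2 followed Adck2 at 0.810 (0.793; -0.448 in glands) and Ssbp1, 5 tested genes away, at 0.80. The mitochondrial ribosomal protein gene Mrps33, 2 tested genes away, correlated with it in both tissues, at 0.79 in tumours and 0.90 in glands. Its highest tumours, at 12.53 and 12.50, and its lowest, at 10.16, all came from irradiated wild-type hosts, with Adck2 at 8.98, 8.10 and 5.95. In the tumour highest in Ndufb2, Ssbp1 was at 12.12, its median, and Mrps33 at 10.36, under its median of 10.47.

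Cycs followed Gsdme, a pore-forming gasdermin that lies 2 tested genes away, at r = 0.858 (0.668 without the 2 farthest; -0.501 in glands). In 1 tumour of an irradiated wild-type host Cycs was at 13.89, Gsdme at 12.30, Mpp6 at 13.83 and Osbpl3 at 13.44, which for each gene was the highest of the 48. The medians of these genes were 12.24, 8.22, 10.10 and 9.31. Nfe2l3, on the other side of Cycs, was at 8.07 in that tumour, under its median of 8.99, and correlated with Cycs at 0.10. The tumour lowest in Cycs, at 11.21, was also the lowest in Gsdme, at 6.54. The 10 pairs among the 5 members on chromosome 6 had correlations from -0.114 (Ndufa5 and Cycs) to 0.393 (Ndufa4 and Ndufb2), with a median of 0.0911, beside 0.249 over all 780 pairs of members. Ndufa5 and Ndufa4, with 27 tested genes between them, correlated at 0.131.

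**Figure D5:**
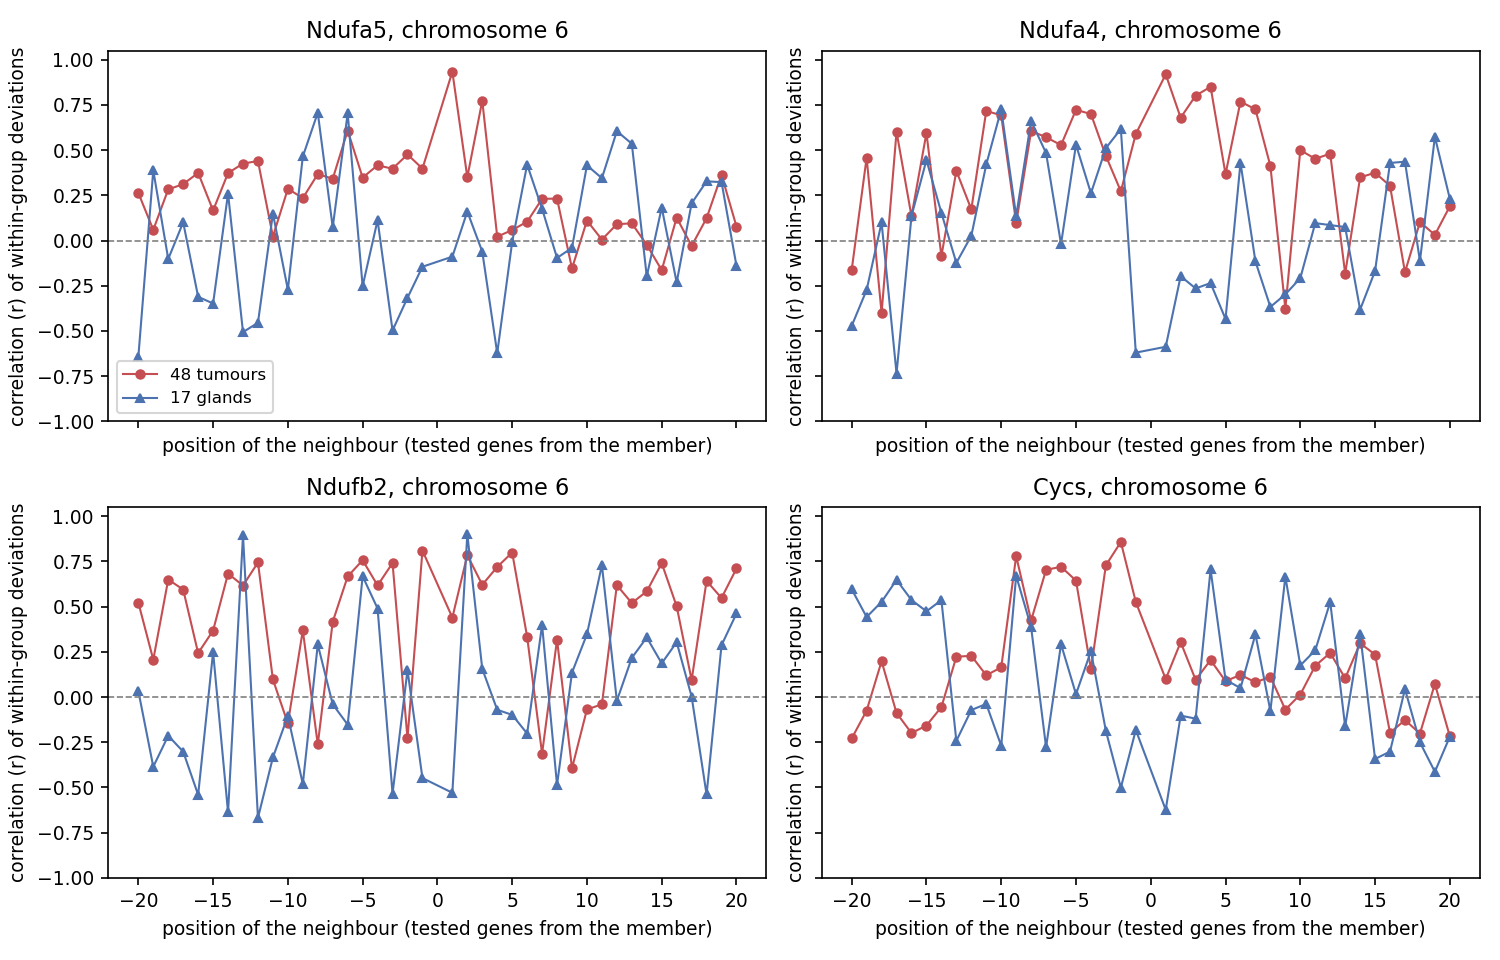
Correlation of within-group deviations of Ndufa5, Ndufa4, Ndufb2 and Cycs with each of up to 20 tested genes on either side on chromosome 6, in 48 tumours and 17 glands; the horizontal axis counts tested genes from the member. In tumours correlations reach 0.93 beside Ndufa5 and 0.92 beside Ndufa4 while the glands are below 0 for those same 2 neighbours; beside Ndufb2 a gland value of 0.90 stands at Mrps33.

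Some members that share another chromosome correlated with each other in tumours. Of all 44 pairs of members on 1 chromosome, the 10 of chromosome 6 included, 41 correlated above 0, with a median of 0.541. Over all 780 pairs of members the median was 0.249, and 85.1% were positive. The same values for pairs of all tested genes on 1 chromosome are not given here. On chromosome 15 Ndufb9 and Cox6c, with 58 tested genes between them, correlated at 0.786 (0.657 without the 2 farthest). Ndufb9 was highest at 13.32 in a tumour of an irradiated heterozygous host, where Cox6c, at 13.47, was also the highest of the 48. It was lowest at 10.93 in an irradiated wild-type host, where Cox6c, at 11.94, was again lowest. On chromosome 19 Ndufs8, an iron-sulfur subunit of complex I, and Ndufv1, which holds the flavin that takes electrons from NADH, correlated at 0.833 (0.765) with 6 tested genes between them, and Ndufb8 and Cox8a, with 239 between them, correlated at 0.799. Ndufb9 correlated with Mrpl13, 16 tested genes away, at 0.809 in tumours and 0.630 in glands. Cox4i1 followed Tmem208 at 0.931 and Ndufb7 followed Psme3ip1 at 0.913. Cox6a2 was again different, being most like the muscle gene Myom1 (0.931) and correlating at -0.202 with its chromosome neighbours. Ndufs4, at -0.218, was the lowest member by this measure. These correlations describe 48 tumours normalized together, and their cause was not tested.

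Related mitochondrial genes gave the same counts in the comparisons. Over 7 further lists (22 other chain subunits, 16 ATP synthase genes, 12 of the citric acid cycle, 34 assembly factors, 15 of biogenesis, 27 mitochondrial ribosomal proteins and 14 of glycolysis), 0 genes passed in the 9 gland or 5 tumour comparisons in limma. At an unadjusted p under 0.05 were 47 of 1260 results in glands, beside 5.80% over all genes, and 40 of 700 in tumours, beside 5.32%. The smallest p in glands were those of Tfb1m and Tfb2m, which modify or help transcribe mitochondrial RNA, and of the assembly factor Acad9, at 0.41 (SE 0.09, limma adjusted p = 0.0908), 0.30 and 0.33 from 1 to 4 weeks after irradiation. In tumours they were those of Cox7c, -0.54 in irradiated heterozygous against wild-type hosts (limma adjusted p = 0.721), Uqcrb (-0.17) and Sdhaf2 (-0.29). On the muscle list Pfkm, the muscle form of phosphofructokinase, passed in glands (0.28, limma adjusted p = 0.00239), and Cox8b did in tumours (0.56, limma adjusted p = 9.99e-08). On proliferation 15 of the 27 mitochondrial ribosomal proteins and 7 of the 16 ATP synthase genes passed upward in tumours, beside 8.77% of genes, with median slopes of 0.31 and 0.22 beside 0.16 for the members. That fit too includes tumour 22 of irradiated wild-type hosts, the lowest on the proliferation list.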

How the data were processed

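Total RNA of 17 glands and 48 tumours was measured on Affymetrix arrays with 45101 probe sets. The authors deposited the gland values as linear intensity and the tumour values as log2 values, and per the submitters' processing notes RMA was used for both (version not given in the sources used here). RMA fits and scales arrays together and shrinks differences of dim probe sets. Gland values were turned to log2, and no fit or test joined the tissues. Correlations and SD percentiles given for both tissues are descriptions, from 17 glands in 6 groups and 48 tumours in 4 groups. A platform table gave 34958 probe sets 1 gene, 932 several and 9211 none, and only the first were used, with 1 probe set per gene (highest mean in the tissue). Of 50 other probe sets of members, 29 correlated above 0.5 with the one used in glands and 37 in tumours. Of the 21 at or under 0.5 in glands, 15 had means under 7. Genes under the 40th percentile of mean level (4.15 in glands, 5.14 in tumours) were left out of tests, which left 12945 and 12786. Precision was limited by the number of arrays.

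Differences were tested with limma 3.58.1 (R 4.3.3, lmFit and eBayes with trend) in 1 fit per tissue, with Benjamini-Hochberg adjustment over all tested genes and a threshold of 0.05. Slopes are coefficients of a marker list's mean log2 level within groups. The fits were tested on simulated data. Tables were made with Python 3.11.15, numpy 2.4.6 and pandas 2.3.3. The members, the lists, the motifs and the tests were chosen with earlier results of these data known. Named with values were members past a threshold, otherwise the 3 members with the smallest p in a comparison, the 6 with the largest SD in each tissue, 1 anchor per complex or carrier, and Cox6a1 with Cox6a2. Neighbours and their pairs were chosen after their values were seen.

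Samples of different groups share repeat numbers. Same-numbered glands deviated together, at r over 0.1 in every pair, only between sham and 4 weeks (r from 0.123 to 0.216 in wild type and from 0.112 to 0.316 in heterozygotes) and between sham wild type and the 2 heterozygotes at 1 week (0.225 to 0.284). Glands of different groups and different numbers correlated from -0.465 to 0.481, so the values above lie within that range. The median was -0.051 for different numbers and 0.074 for the same number. Whether the numbers mark shared animals or days is not stated. Sequences are from RefSeq (GRCm38.p6). Alternatives were another filter or none, all probe sets averaged, other covariates, a replicate block, and leaving out single gland arrays or the samples rich in muscle or lymph node genes.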

Additional observations from a re-analysis of the deposited data

Results flagged for a closer look

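In 3 of 33 sets of group values, a single tumour lay farther from the rest of its group than a Dixon test at the 95% level allows, where chance gives about 1 in 20. Cox6a2 was at 8.91 in tumour 6 of sham-irradiated wild-type hosts, while the other 8 tumours ran from 6.13 to 7.21. In that tumour the muscle list mean was 10.1 and Acta1 was at 12.55. Ndufb9 was at 10.94 in tumour 3 of sham-irradiated heterozygous hosts, while the other 5 ran from 12.31 to 12.60. Its chromosome neighbour Tatdn1, at 7.81, and Mrpl13, 16 tested genes away, at 10.66, were the lowest of all 48 there. Mtss1, adjacent on the other side, was at 12.93, at rank 47 of 48 from the lowest. Cox4i1 was at 12.44 in tumour 3 of sham-irradiated wild-type hosts, while the others ran from 12.99 to 13.54. Tmem208, which followed Cox4i1 over the tumours, was at 9.82 there. Tmem208 is not adjacent, since the tested genes beside Cox4i1 are Emc8 and Irf8. The part of muscle in the first value was not tested beyond the fits on the muscle list.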

How the results depend on the processing

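In limma 0 members passed in the 9 gland and 5 tumour comparisons under every alternative run, the replicate block included, which left the 4-week medians of the members at -0.07 (wild type) and 0.00 (heterozygotes). Without the 4 muscle-rich arrays (chosen after seeing the data), gland medians were -0.16 (wild type, 1 week), -0.21 (wild type, 4 weeks), -0.12 (sham genotypes), 0.094 and 0.22 (interactions at 1 and 4 weeks), and 0 members passed on muscle. Leaving out 1 array gave -0.20 to 0.059 for heterozygotes at 1 week and -0.19 to 0.075 for the interaction at 1 week, both ends from their 2 irradiated arrays. With white fat and luminal covariates the interaction at 4 weeks was -0.073. With the slow muscle list 0 members passed, the median slope was -0.15, and Cox6a1 (0.16), Cox6a2 (-2.01) and Sdhd (0.16) reversed. Cox6a2 between sham genotypes reversed to 0.44 without the muscle-rich arrays.

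In tumours a replicate block (the labels do not say what the numbers mark, and same-numbered tumours correlated from -0.43 to 0.63) left 2 members past the test on luminal and 0 on proliferation genes and turned Ndufs3 on brown fat to 0.018. Averaging probe sets left 7 on proliferation. Without the 6 muscle-rich tumours the luminal median was 0.063, the muscle median -0.021 with 0 members past the test, and Ndufv1 on muscle was -0.053. The causes were not tested, apart from the fewer samples used. With 2 or 3 arrays a gland group, no difference of a single member passed, Sdhc at -0.36 (heterozygotes, 1 week) and Cox6a2 at -1.57 (sham genotypes) included.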
